A study of Mus musculus with 2 samples.

Results

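The genes described are 39 mouse genes of the peroxisome: the enzymes of peroxisomal beta- and alpha-oxidation, oxidases, transporters and other membrane proteins, and peroxins, without catalase. They were chosen by gene symbol from the spots of 2 dual-colour expression arrays, current and older symbols included, and comprise 24 enzymes, 4 membrane proteins, 10 peroxins and Vnn1. Vnn1 encodes pantetheinase, a surface enzyme outside the peroxisome that is known as a PPARalpha target in mouse liver. Of the 39 genes, 38 were measured, among 16698 measured genes in all. Both probes of Abcd2, a transporter of very long-chain acyl-CoA, were not well above background in either condition.

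The arrays carried kidney RNA of male CD-1 mice that were 7 weeks old at the start and were fed AIN-93G diets for 1 week. One group ate 2% HMPA and 0.2% adenine by weight, and the other ate 0.2% adenine alone. HMPA, 3-(4-hydroxy-3-methoxyphenyl)propionic acid, is a small phenolic compound, and adenine in the diet injures the tubules, as a model of chronic kidney disease. The sample titles instead state an age of 12 weeks and name 5 mice, and do not say whether RNA was pooled. All kidneys compared here had adenine in common, so the ratios show no level of a kidney without it. Both conditions were hybridised to each array, HMPA in red on array 1 and in green on array 2, and the pair of arrays was taken to repeat the same RNA with the dyes exchanged. This leaves 1 RNA sample per condition, so no p-value can be had and the spread between animals is unknown. Values after ± give the distance of each array from the mean of the 2 arrays.

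Peroxisomes are small organelles bounded by a single membrane that shorten very long-chain, branched and dicarboxylic acyl-CoAs, oxidise D-amino acids, hydroxy acids and polyamines, and remove branches by alpha-oxidation. They have no DNA, so every protein is made in the cytosol and brought in by peroxins, the proteins that build the membrane, import enzymes and divide the organelle. In the kidney they are most abundant in proximal tubule cells, which live largely on fatty acids, and in mouse liver many of their genes answer to the nuclear receptor PPARalpha.

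Most of these genes were higher with HMPA than with adenine alone. By a rule of size, a mean ratio of at least 2-fold and at least 1.5-fold the same way on each array, 22 of the 38 were higher, where 6.64% of all measured genes were. Only Paox was lower, where 7.72% of all measured genes were, and the other 15 lay between 0.36 and 0.96 on the log2 scale. The median log2 ratio was 1.16 (1.04 on array 1 and 1.13 on array 2), and that of all measured genes was -0.04. Of the 38, 37 had ratios above 0 on both arrays, where 35.9% of all measured genes had, and 1 had ratios below 0 on both, where 42.9% had. Where signals below are said not to overlap or to lie apart, this describes 2 arrays of 1 RNA sample per condition. How many of all measured genes had such signals was not counted, so nothing is read from it about the set. Ratios of at least 4-fold were found for 7 genes, and for 1.53% of all measured genes. In whole-kidney RNA, more cells of a type and more RNA per cell cannot be told apart. All 38 were marked well above background in the 4 channels, although Nudt12 and Hacl1 were dim and their ratios depended on the background correction.

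**Figure D1:**
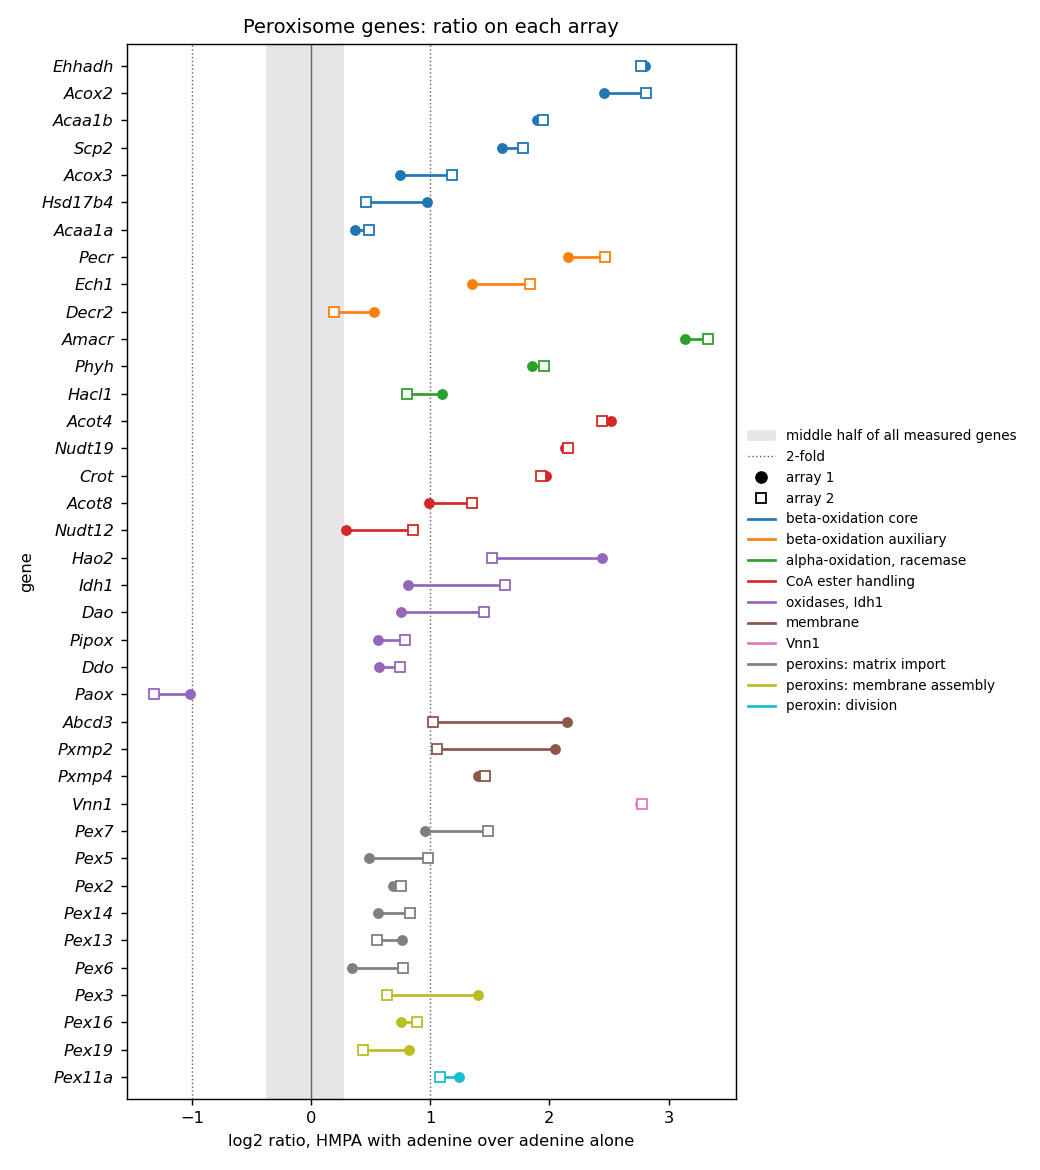
Log2 ratio of HMPA with adenine over adenine alone for the 38 measured genes, on array 1 (filled circles) and array 2 (open squares), grouped by role; the grey band is the interquartile range of all measured genes, and dotted lines mark 2-fold. Paox is the gene to the left of 0 on both arrays, and Amacr, at 3.14 and 3.33, is farthest to the right.

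In the core cycle of beta-oxidation, an acyl-CoA oxidase makes a double bond, a bifunctional enzyme hydrates and dehydrogenates it, and a thiolase splits off acetyl-CoA. Of the 7 genes of this cycle, 4 were higher and the median log2 ratio was 1.69. Ehhadh, the L-bifunctional enzyme, had normalised signals of 9878 and 11150 with HMPA on arrays 1 and 2, against 1415 and 1635 with adenine alone. Both HMPA signals lay above both adenine signals, and the log2 ratio was 2.79 ± 0.016, a 6.90-fold difference and rank 73 among the 16698 measured genes. Hsd17b4, the D-bifunctional enzyme that handles branched chains and bile acid precursors, gave 9443 and 7695 with HMPA, against 4819 and 5582 with adenine alone. Its log2 ratio, 0.72 ± 0.25, did not meet the rule, although its signals did not overlap between the conditions either. The log2 ratio of Ehhadh exceeded that of Hsd17b4 by 2.07, with 1.83 on array 1 and 2.31 on array 2.

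The acyl-CoA oxidases likewise differed. Acox2, which acts on branched chains and bile acid intermediates, had signals of 1474 and 1819 with HMPA, against 268 and 259 with adenine alone, and a log2 ratio of 2.64 ± 0.18. Acox3, an oxidase of branched acyl-CoAs in rodents, had 2150 and 2614 with HMPA, against 1285 and 1153 with adenine alone, and a log2 ratio of 0.96 ± 0.22. The conditions were apart for both genes on both arrays, but Acox3 fell just short of the rule, at 0.74 on array 1 and 1.18 on array 2, and met it with the deposited Feature Extraction ratios (1.00). Scp2, whose longer product is a thiolase for branched chains and whose shorter product is sterol carrier protein, had a log2 ratio of 1.69 ± 0.089. The single Acox2 probe joins pieces of the transcript that lie 4390 bases apart from end to end, so it reads spliced RNA, and its sequence is shown for that reason in lower case, 5′ to 3′, at chr14:9058288-9062677 on the minus strand of mm9, the build of the array files.
Acox2 probe: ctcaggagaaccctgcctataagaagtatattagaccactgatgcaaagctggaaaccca

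The thiolase genes Acaa1a and Acaa1b are close paralogs on chromosome 9, and the value of Acaa1a depended on the probe. Acaa1b had signals of 9993 and 12335 with HMPA, against 2686 and 3208 with adenine alone, and a log2 ratio of 1.92 ± 0.024. The brightest probe of Acaa1a, which stands for the gene, had 14020 and 13373 with HMPA, against 10847 and 9572 with adenine alone, and a log2 ratio of 0.43 ± 0.056. The other probes of Acaa1a, both across splice junctions, gave log2 ratios of 1.91 ± 0.14 and 1.44 ± 0.28, and the mean over the 3 probes was 1.26, which would count as higher. Binding of a probe to the transcripts of both genes was not tested, so the value of Acaa1a is uncertain. The spliced probe with a ratio of 1.44 is printed in lower case, 5′ to 3′, because it differs in ratio from the brightest probe of the same gene. It lies at chr9:119255643-119256863 on the plus strand of mm9.
Acaa1a probe with a log2 ratio of 1.44: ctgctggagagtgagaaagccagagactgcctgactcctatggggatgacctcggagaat

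Of the 3 auxiliary enzymes that deal with double bonds, 2 were higher. Pecr, the peroxisomal trans-enoyl-CoA reductase, had signals of 24386 and 29912 with HMPA, against 5457 and 5418 with adenine alone, and a log2 ratio of 2.31 ± 0.15. Ech1, a dienoyl-CoA isomerase found in peroxisomes and mitochondria, had a log2 ratio of 1.59 ± 0.24. Decr2, the peroxisomal dienoyl-CoA reductase, had 747 and 587 with HMPA, against 517 and 514 with adenine alone, and the smallest ratio above 0 of all 38 genes, 0.36 ± 0.17. The conditions did not overlap for Decr2, and its log2 ratio was 1.95 below that of Pecr.

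The highest ratio was that of Amacr, grouped here with Phyh and Hacl1 of alpha-oxidation, and 2 of these 3 genes were higher. Amacr, the racemase that turns branched acyl-CoAs into the form the oxidases accept, had signals of 19672 and 27029 with HMPA, against 2239 and 2687 with adenine alone. The 2 HMPA signals stood far above the adenine signals, with a log2 ratio of 3.23 ± 0.098, a 9.40-fold difference and rank 37 of all measured genes. Phyh, the hydroxylase that begins the breakdown of phytanic acid, had 17754 and 20864 with HMPA, against 4898 and 5386 with adenine alone, and a log2 ratio of 1.91 ± 0.048. Hacl1, the lyase of the next step, had 233 and 209 with HMPA, against 109 and 120 with adenine alone, and a log2 ratio of 0.95 ± 0.14. Hacl1 stayed short of the rule, with 1.09 on array 1 and 0.81 on array 2, but met it with a normexp offset of 16 (1.24), without background correction (1.15), with the deposited Feature Extraction ratios (1.56) and without array 2.

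Of the 5 genes that act on CoA esters, 4 were higher, with a median log2 ratio of 1.95. Acot4, a thioesterase that in mouse releases succinate from succinyl-CoA, had signals of 1278 and 1219 with HMPA, against 224 and 225 with adenine alone. Its log2 ratio was 2.48 ± 0.038, and a second, dimmer probe gave 1.44 ± 0.11. Acot4 has close paralogs beside it on chromosome 12, and binding to their transcripts was not tested. Nudt19, which hydrolyses CoA and is known in mouse kidney, had 33946 and 43737 with HMPA, against 7742 and 9797 with adenine alone, and a log2 ratio of 2.15 ± 0.013. Crot, the carnitine octanoyltransferase that passes shortened chains on towards mitochondria, had 5843 and 6698 with HMPA, against 1486 and 1760 with adenine alone, and a log2 ratio of 1.95 ± 0.024. Both genes kept the conditions wide apart on both arrays. Acot8, a thioesterase of broad range, had a log2 ratio of 1.17 ± 0.18, and 0.99, short of the rule, without array 2. Nudt12, a hydrolase of NADH and related nucleotides, had the lowest signals of the 38 genes, 88.5 and 119 with HMPA, against 72.2 and 66.0 with adenine alone, and a log2 ratio of 0.57 ± 0.28. With the deposited Feature Extraction ratios Nudt12 was at 1.64 and met the rule, so its value is uncertain.

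The oxidases and Idh1 were the most mixed group, with 3 of 6 higher and 1 lower. Hao2, the hydroxy acid oxidase of kidney, had signals of 8241 and 5784 with HMPA, against 1518 and 2024 with adenine alone, and a log2 ratio of 1.98 ± 0.46. Dao, the D-amino acid oxidase, had 707 and 913 with HMPA, against 418 and 334 with adenine alone, and a log2 ratio of 1.10 ± 0.35. Idh1, an isocitrate dehydrogenase that provides NADPH in cytosol and peroxisomes, had 988 and 1342 with HMPA, against 562 and 436 with adenine alone, and a log2 ratio of 1.22 ± 0.40. For these 3 genes the conditions did not overlap, but the arrays differed in size, and without array 2 the ratios of Dao (0.76) and Idh1 (0.82) no longer met the rule. Pipox, which oxidises pipecolic acid and sarcosine, had a log2 ratio of 0.67 ± 0.11, and Ddo, the D-aspartate oxidase, had 0.66 ± 0.092. The other probes of Ddo gave 1.05 ± 0.23 and 0.31 ± 0.10.

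Paox, which oxidises acetylated polyamines, was the exception. It had signals of 1010 and 886 with HMPA, against 2047 and 2205 with adenine alone, and both HMPA signals lay below both adenine signals. The log2 ratio was -1.17 ± 0.15, 2.25-fold higher with adenine alone. A second probe of the gene gave -1.03 ± 0.12, so both probes ran the same way. The log2 ratio of Paox was 3.14 below that of Hao2.

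**Figure D2:**
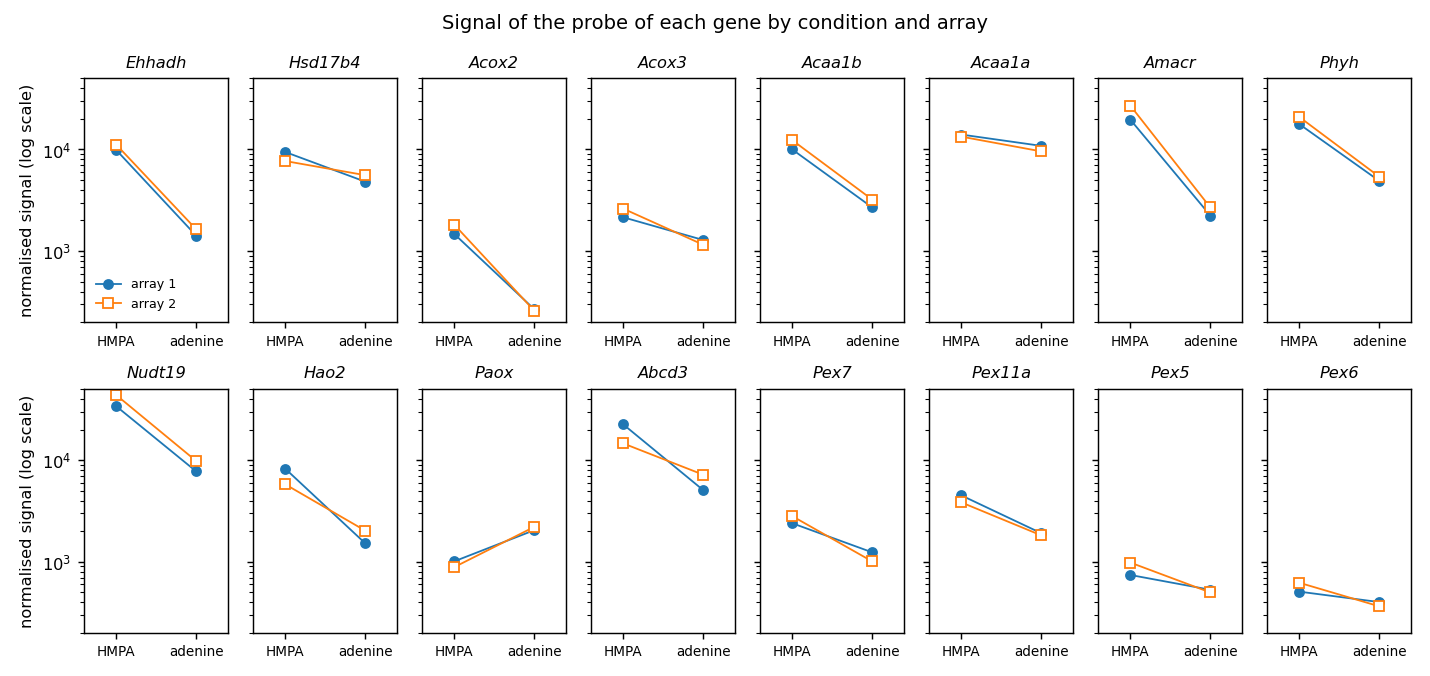
Normalised signal (log scale) of the probe of each of 16 genes with HMPA and with adenine alone, on array 1 (filled circles) and array 2 (open squares); levels of different probes are not comparable. The lines slope down from HMPA to adenine in every panel but that of Paox, and are steepest for Amacr, Ehhadh and Acox2.

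All 3 measured membrane proteins were higher, with similar means over the 2 arrays, but their order was reversed between the arrays. Abcd3, an ATP-driven transporter that brings acyl-CoAs into the organelle, had signals of 22475 and 14611 with HMPA, against 5064 and 7184 with adenine alone. Its log2 ratio of 1.59 ± 0.56 had the widest distance between arrays of the 38 genes, 2.15 on array 1 and 1.02 on array 2. Dimmer Abcd3 probes gave 1.07 ± 0.28 and 1.01 ± 0.33, higher on array 2 than on array 1. Pxmp2, a channel-forming protein of the membrane, had 2390 and 1702 with HMPA, against 577 and 819 with adenine alone, and a log2 ratio of 1.55 ± 0.50. Pxmp4, a membrane protein of little-known role, had 3724 and 4198 with HMPA, against 1410 and 1526 with adenine alone. Its log2 ratio was 1.43 ± 0.029, and its other probe gave 1.70 ± 0.13. The conditions were apart for all 3. Vnn1, which lies outside the peroxisome, had 2500.0 and 2958 with HMPA, against 369 and 430 with adenine alone, and a log2 ratio of 2.77 ± 0.0095, the closest pair of arrays among the 38 genes.

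The peroxins moved in a narrow range. All 10 had ratios above 0 on both arrays, 3 were higher by the rule, and the log2 ratios ran from 0.56 for Pex6 to 1.22 for Pex7 with a median of 0.73. Among the 6 that import matrix proteins, Pex7 was the only one to meet the rule. Pex7 is the receptor for the N-terminal signal carried by thiolase and by Phyh, and had signals of 2394 and 2811 with HMPA, against 1237 and 1007 with adenine alone, and a log2 ratio of 1.22 ± 0.26. Pex5, the receptor for the C-terminal signal of most matrix enzymes, had 742 and 983 with HMPA, against 530 and 499 with adenine alone, and a log2 ratio of 0.73 ± 0.25. The conditions did not overlap for either receptor, but the dimmer Pex5 probe gave 0.11 ± 0.081, and Pex7 without array 2 was at 0.95, short of the rule. Pex14 and Pex13, of the docking complex, had log2 ratios of 0.70 ± 0.13 and 0.66 ± 0.11. Of the other probes of Pex13, one gave 0.53 and the other -0.05, which made it the 1 gene of 13 with several probes where probes differed in sign. Pex2, a ubiquitin ligase subunit that recycles the receptor, had 0.72 ± 0.033, and Pex6, an ATPase that pulls the receptor out of the membrane, had 0.56 ± 0.21.

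Of the peroxins that place proteins in the membrane, Pex3 had signals of 556 and 429 with HMPA, against 210 and 276 with adenine alone, and a log2 ratio of 1.02 ± 0.38. Pex3, the membrane anchor for Pex19, met the rule narrowly: without array 1 it was at 0.64, short of the rule. Its other probe above background gave 0.96 ± 0.22, and with the mean over all probes Pex3 was at 0.99, also short. Pex16, which brings Pex3 to the membrane, had a log2 ratio of 0.82 ± 0.066, and Pex19, the carrier of membrane proteins, had 0.63 ± 0.19. Pex11a, which elongates peroxisomes before division and is known in mouse liver as a PPARalpha target, had 4502 and 3842 with HMPA, against 1910 and 1818 with adenine alone, and 1.16 ± 0.079. Its probe is printed 10 times on each array, and the 9 usable spots had log2 ratios from 1.10 to 1.70 on array 1 (SD 0.20) and from 0.73 to 1.28 on array 2 (SD 0.18). Every usable Pex11a spot was therefore above 0. Such repeats measure printing and hybridisation only.

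The peroxins outside the 39 genes were lower still in ratio. None of these 7 met the rule, and their median log2 ratio was 0.37. Pex11g, of the division family, had 0.46 ± 0.32, and Pex10, a ubiquitin ligase subunit, had 0.41 ± 0.14. Pex26, which anchors the export ATPases, had 0.37 ± 0.21, and Pex5l, a relative of Pex5, was at 0.01 ± 0.080. Over all 17 peroxins, 3 were higher and the median was 0.66.

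Enzymes were set against peroxins as whole groups. Of 24 enzymes, 15 were higher, 1 was lower and 8 were neither, and of 10 peroxins, 3 were higher and 7 were neither. The median log2 ratio was 1.41 for enzymes (1.22 on array 1 and 1.57 on array 2) and 0.73 for peroxins (0.76 and 0.80). The medians differed by 0.68, with 0.46 on array 1 and 0.77 on array 2, a 1.60-fold difference. The groups overlapped widely: 13 enzymes lay above Pex7, the highest peroxin, 11 lay below it, and 3 lay below Pex6, the lowest. The range of the enzymes was 4.40 on the log2 scale and that of the peroxins 0.66. At least 4-fold higher ratios were found for 6 enzymes and for none of the 10 peroxins, where 1.53% of all measured genes had them. With a share that small, none of 10 genes says little, and nothing is read from it about the peroxins. With median centring of each array in place of loess, 12 enzymes and 0 peroxins met the rule as higher. Pex7 and Pex11a, both at 0.99, then fell just short, and the median of all genes was -0.22. The counts were 16 and 3 with a normexp offset of 16 or without background correction, and 18 and 4 with the deposited Feature Extraction ratios. They were 13 and 2 without array 2, and 16 and 2 without array 1 or with the mean over all probes. With 1 RNA sample per condition the difference has no test, and genes are not replicates.

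**Figure D3:**
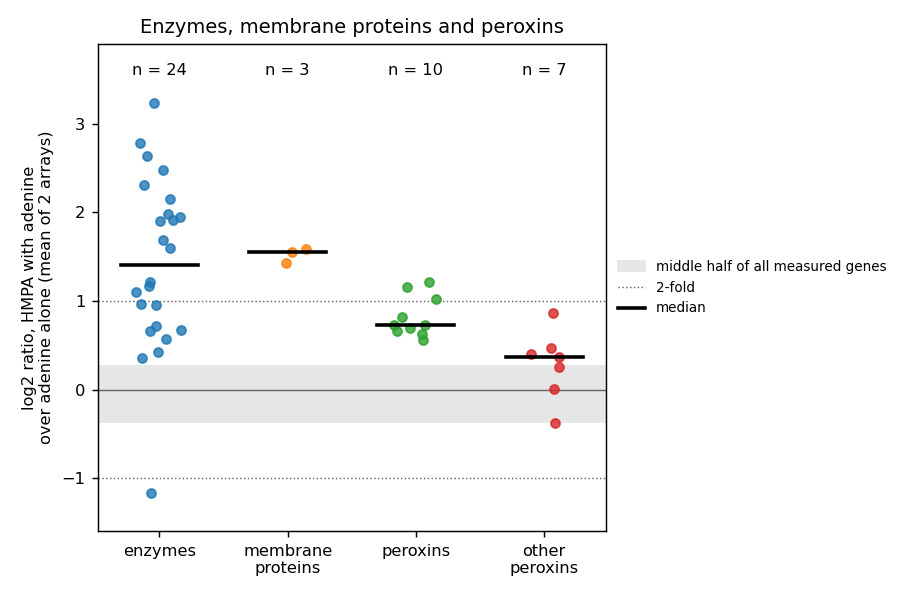
Log2 ratio of HMPA with adenine over adenine alone (mean of the 2 arrays) for 24 enzymes, 3 membrane proteins, 10 peroxins and the 7 other peroxins; each point is a gene and black lines are medians. Enzymes spread from -1.17 to 3.23, and all 10 peroxins lie between 0.56 and 1.22.

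Enzymes of like activity could differ in ratio, as in a pair of thioesterases and a pair of oxidases that were picked with the values known. The log2 ratio of Acot4 exceeded that of Acot8 by 1.31, with 1.53 on array 1 and 1.09 on array 2. This rests on the brightest Acot4 probe: the dimmer one, at 1.44 ± 0.11, lay much closer to Acot8, at 1.17. That of Acox2 exceeded that of Acox3 by 1.67, with 1.72 on array 1 and 1.63 on array 2.

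Agreement between probes set a limit beside that between arrays. Of the 38 genes, 24 had 1 probe on the array, and 13 had several above background, whose ratios spread by a median of 0.48 within a gene. The spread was widest for Acaa1a, at 1.49, and next for Acot4, at 1.04, and it was 0.0065 for Pex16. The distance of each array from the mean was over 0.3 for 6 genes.

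**Figure D4:**
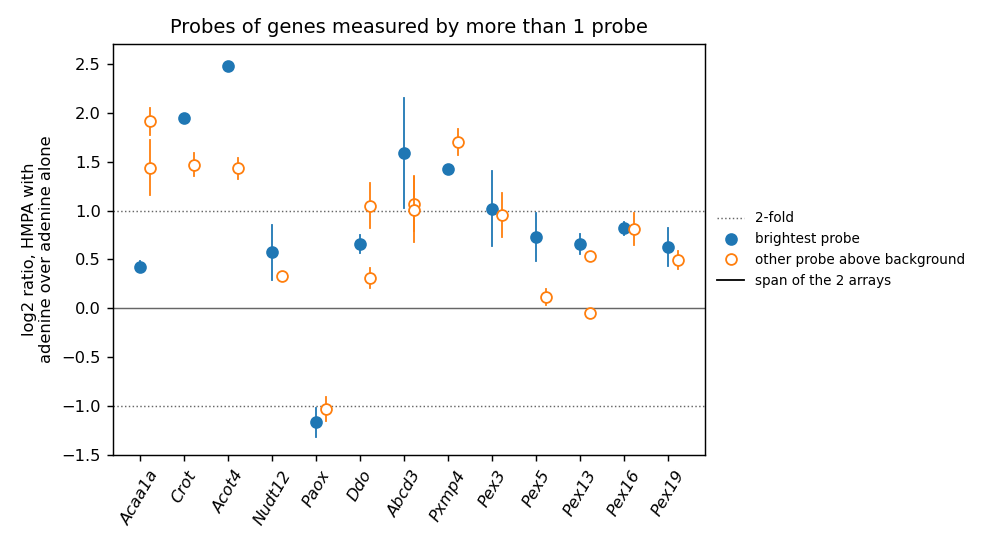
Log2 ratio of HMPA with adenine over adenine alone for each probe above background of the 13 genes with several; filled points are the brightest probe, open points the others, and bars span the 2 arrays. Acaa1a has probes from 0.43 to 1.91, both Paox probes lie below -1, and 1 of the Pex13 probes lies at -0.05.

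Promoter sequences were searched for the direct repeat to which PPARalpha binds with RXR, since many genes of this set are known to answer to it in liver. RefSeq promoters of build GRCm38.p6, from 250 bases before to 50 bases after the start of a gene, were found for 31 of the 39 genes. The motif was AGGTCA, any 1 letter (N) and AGGTCA again, on either strand. The exact motif was in none of the 31 genes, and in 13 of 27025 genes with a promoter, or 0.0481%. With up to 2 of the 12 fixed letters different, it was in 2 of the 31 genes, or 6.45%, against 4.40% of all genes. A single AGGTCA was in 5 of the 31 genes, or 16.1%, against 18.1% of all genes. These shares lay near each other, so nothing is read from them about the set. The matches were in Acot4 and Acox2. Capitals mark the match, which in Acot4 runs on the opposite strand. The Acot4 window is chr12:84038358-84038386 on the plus strand, with the match beginning 13 bases before the start. The Acox2 window is chr14:8258810-8258838 on the minus strand, with the match beginning 9 bases after the start. A match of letters does not show binding, and a sequence outside this window was not searched.
Acot4 promoter: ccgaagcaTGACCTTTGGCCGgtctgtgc
Acox2 promoter: gctgtcccAGGACAGAGGTGAgtcaagag

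Other fatty acid genes and cell type markers were read beside this set. Of 53 other measured peroxisome genes, a list that also holds some proteins of mitochondria, 24 were higher and none was lower, with a median log2 ratio of 0.85. The highest were Acot12 (3.50 ± 0.24), a cytosolic thioesterase, Mpv17l (3.25 ± 0.083), a membrane protein, and Slc27a2 (2.63 ± 0.25), a very long-chain acyl-CoA synthetase. Of 21 genes of mitochondrial beta-oxidation, 13 were higher and none was lower, with a median of 1.13. Acadm, the medium-chain dehydrogenase, was the highest at 2.44 ± 0.0046, and Cpt2, the carnitine transferase of the inner membrane, had 1.94 ± 0.27. The median of the mitochondrial list thus lay between those of the peroxisome enzymes and of the peroxins. Of 12 measured regulators, 3 were higher: Hnf4a (1.90 ± 0.16), also on the proximal tubule list used here, Nr1h4 (1.59 ± 0.26) and Ppara (1.22 ± 0.15), which encodes PPARalpha.

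Markers of proximal tubule cells moved with the set. Of 19 measured, 18 were higher with HMPA, with a median log2 ratio of 2.59 and a range from 0.69 to 5.03. Their summed signal was 393878 and 406294 with HMPA, against 56069 and 71202 with adenine alone. For the 24 peroxisome enzymes the sums were 194367 and 227911 with HMPA, against 63595 and 67737 with adenine alone, and for the 10 peroxins they were 13544 and 13771 with HMPA, against 7236 and 7114 with adenine alone. Distal tubule and duct markers had a median log2 ratio of 1.00 and a range from -0.63 to 3.60, with 8 of 16 higher. Their summed signal was 89771 and 98595 with HMPA, against 46599 and 52077 with adenine alone. Macrophage markers were lower in 12 of 12 cases (median -2.10, summed signal 14045 and 12377 with HMPA, against 83794 and 81945 with adenine alone). Fibroblast markers were lower in 9 of 10 cases (median -1.83, 21742 and 18104 with HMPA, against 123995 and 112162 with adenine alone), and adipocyte markers in 5 of 8 (median -1.20, 6623 and 4863 with HMPA, against 19133 and 20250.2 with adenine alone). Of 12 hepatocyte markers, 7 were measured and 2 of these were higher (median 0.53, summed signal 14465 and 18415 with HMPA, against 2975 and 2666 with adenine alone). Those 2, named after their values were seen, were Cyp2e1, with a log2 ratio of 2.91 ± 0.31, and Alb, which was not well above background with adenine alone. The other 5 met the rule neither way, with log2 ratios from -0.74 to 0.82, and 1 of them was below 0 on both arrays. A summed signal is weighted to the brightest probes, and that of the hepatocyte markers was not split by gene. Cyp7a1, Ahsg, Apoa1 and Cps1 were not well above background on both arrays in either condition. The part of these shifts in the ratios of the peroxisome genes was not tested.

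**Figure D5:**
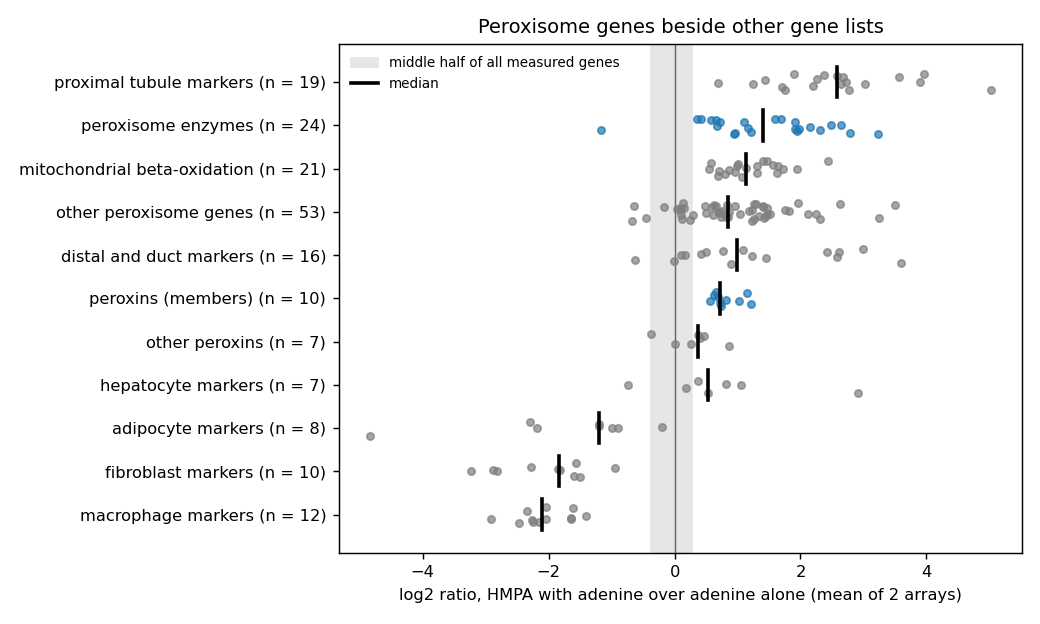
Log2 ratio of HMPA with adenine over adenine alone (mean of the 2 arrays) for peroxisome enzymes and peroxins (blue) beside other gene lists (grey); each point is a gene, black bars are medians, and the grey band is the interquartile range of all measured genes. Proximal tubule markers have the highest median, 2.59, followed by peroxisome enzymes at 1.41, and macrophage markers the lowest, -2.10.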

How the data were processed

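Per the labels, QIAzol was used to extract kidney RNA, which was made into cRNA carrying Cy3 or Cy5, and each array held both conditions. The deposited scanner files hold, per the file headers, the mean intensity of each spot and the median intensity of its local background, without normalization, from Feature Extraction 12.2.0.7 on probes placed on mm9, while the submitters' processing notes name version 9.5. The authors' deposited log10 ratios of red to green come from the same software, after its own background subtraction and dye normalisation, and served, as log2, for an alternative. The deposited value table repeats them, unturned, to within 0.00499 log10 units, with a column median of 0 on each array. Each array had 45018 spots, 1639 of them controls, none was saturated, and 57.9% to 67.9% of gene spots were well above background in a channel. No animal or extract is named for either array in the labels, so they were not used as replicates, and their number limits the precision.

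Spots were background-corrected with limma 3.58.1 in R 4.3.3 (normexp, offset 50) and normalised by loess within each array, with controls and unreliable spots at weight 0. Ratios were given the direction HMPA over adenine alone on the log2 scale and averaged over the 2 arrays, in which a dye effect cancels. The dye contrast called 0.0% of genes by the same rule of size. Channel signals were taken after Aquantile scaling. Probes well above background with HMPA, or with adenine alone, on each of the arrays were retained (25138 of 41174, for 16698 genes), and the brightest of them stands for a gene. The 39 genes had 60 probes in 69 spots, and 55 of the probes were kept. Of the 60, 56 were named through their accession in a RefSeq table and 4 by symbol. The rest was done in Python 3.11.15 (pandas 2.3.3, numpy 2.4.6, and for plots matplotlib 3.10.9). The procedure was tested on simulated data.

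The members and the gene lists were chosen with earlier results of these data known. Any of the 39 genes and of the 7 other peroxins could be named, and of other lists up to 8 higher and 8 lower genes that met the rule of size; a few of these are not reported here. The alternatives changed the background correction, the normalisation, the probe of a gene, the filter on dim probes and the arrays used.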

Additional observations from a re-analysis of the deposited data

How the results depend on the processing

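All 38 genes kept the direction of their ratio under all 9 alternatives to the processing, but not all of these could change it. Changes to the filter on dim probes left the values of the 38 genes as they were. Leaving out an array could not turn a direction that was the same on both arrays. The median log2 ratio of the 10 peroxins was 0.73, and it was 0.81 with a normexp offset of 16, 0.79 without background correction, 0.90 with the deposited Feature Extraction ratios, 0.42 with median centring of each array in place of loess, and 0.76 to 0.80 with either array left out. It was 0.66 over all 17 peroxins, an alternative chosen after seeing the data. With median centring 0 of 10 peroxins met the rule, against 3 with loess, 6 calls were lost (Acot8, Idh1, Dao, Pex3, Pex7 and Pex11a), and the split over all genes was 749 higher and 1973 lower, against 1109 and 1289 with loess. Median centring also put the median of all genes at -0.22, against -0.04, and relative to it the enzymes stood 1.41 and the peroxins 0.64 higher, against 1.44 and 0.76 with loess. With the deposited ratios 2043 genes were higher and 2461 lower, and Acox3, Hacl1 (1.56), Nudt12 (1.64) and Pex2 (1.01) met the rule too. With an offset of 16 and without background correction, Hacl1 met the rule as well, and 1396 and 1315 of all measured genes were higher. The cause of these shifts was not tested. Without array 2, Acot8 (0.99), Idh1, Dao and Pex7 fell short of the rule and Hacl1 met it, and without array 1, Pex3 fell short and Acox3 met it. With the mean over all probes, Pex3 (0.99) fell short and Acaa1a (1.26) met it. No paired analysis was possible because each condition had 1 RNA sample, and both conditions shared each array. Signal over background limits the dimmest genes, Nudt12 and Hacl1.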

Other observations

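A further list held known PPARalpha targets of mouse liver. Of 16 measured, 8 were higher and 1 was lower, with a median log2 ratio of 1.07, and the genes given here were picked after their values were seen. The fatty acid hydroxylases Cyp4a10 (2.55 ± 0.16) and Cyp4a14 (2.16 ± 0.18) and the acyl-CoA synthetase Acsl1 (2.12 ± 0.014), which is also among the other peroxisome genes counted above, were higher with HMPA. Pdk4, a kinase that restrains pyruvate oxidation, had 0.43 ± 0.069, short of the rule of size. Plin2, a lipid droplet coat protein, had -0.86 ± 0.23, and Cidea, which enlarges droplets, was lower at -1.20 ± 0.057. Cidea is also one of the adipocyte markers, of which 5 of 8 were lower.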
